A study of Homo sapiens with 18 samples.

Results

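The dual-specificity MAP kinase phosphatases form a family of 10 catalytically active enzymes encoded by DUSP1, DUSP2, DUSP4, DUSP5, DUSP6, DUSP7, DUSP8, DUSP9, DUSP10 and DUSP16. The members were taken by name, and all 10 were found among the 40184 Ensembl gene IDs of the deposited table. MAP kinases become active when a threonine and a tyrosine in their activation loop are phosphorylated, and these phosphatases remove both groups. DUSP6, DUSP7 and DUSP9 are cytoplasmic enzymes that prefer ERK, and DUSP5 is a nuclear enzyme with the same preference. DUSP1, DUSP2 and DUSP4 are nuclear, inducible and act on several MAP kinases, whereas DUSP8, DUSP10 and DUSP16 prefer JNK and p38. DUSP6 in particular is transcribed in response to ERK activity, so it works as a feedback inhibitor and is widely read as a marker of ERK output.

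RNA-seq was done on 3 cell lines derived from human acute myeloid leukaemia, with 18 cultures in all. Each line had 3 cultures given the solvent DMSO and 3 given RMC-4550 at 500 nM, all for 24 h, which makes 6 groups. RMC-4550 is an allosteric inhibitor of SHP2, the product of PTPN11, a phosphatase that couples growth factor receptors to RAS and ERK. Molm-14 and MV4-11 were labelled FLT3-ITD, for a tandem duplication within the receptor FLT3. SKNO-1 was labelled KIT N822K, a point mutation of the receptor KIT. SKNO-1 was cultured with GM-CSF at 10 ng/mL in both of its groups and the other lines without it, so that receptor genotype, cell line and growth factor cannot be told apart. The replicates are labelled as biological, and p-values measure only the spread between these cultures. The comparison set out below is between ERK-selective and JNK/p38-selective members, by level and by change with RMC-4550 in each line.

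Depth was similar throughout, with 17434810 to 19959917 reads per library. The share of mitochondrial reads was 5.07% to 7.02% in 14 libraries. It was 10.5% to 15.02% in Molm-14 RMC-4550 replicate 2, MV4-11 DMSO replicates 1 and 3 and MV4-11 RMC-4550 replicate 1. By read counts, Molm-14 RMC-4550 replicate 2 and MV4-11 RMC-4550 replicate 1 stood apart from the other replicates of their groups. In MV4-11 with DMSO, replicates 1 and 3 were alike, and replicate 2, the library under 10%, stood apart from both. Member results that turn on these 4 libraries are given with and without them. Libraries under 10% leave MV4-11 with 1 culture with DMSO and 2 with RMC-4550. A p-value there cannot measure the spread between MV4-11 controls, so only sizes are given for MV4-11 among these libraries. The myeloid markers SPI1, CD33, CEBPA and LYZ were present in all 6 groups, and MPO averaged 317 CPM (read counts corrected for library depth) in SKNO-1 with DMSO against 3.58 CPM in Molm-14 and 1.44 CPM in MV4-11. RUNX1T1, the fusion partner in t(8;21) leukaemia, averaged 13.8 CPM in SKNO-1 with DMSO and was at 0 reads in the DMSO libraries of the other lines. The T-cell genes CD3D, CD3E and CD3G and the epithelial gene EPCAM were at or near 0 in every group. Not all markers of other cell types were absent. Each line had 2 of 3 epithelial markers at 1 CPM or more in at least 3 libraries. With RMC-4550, 2 of these were called higher for Molm-14, 1 for SKNO-1 and 0 for MV4-11. By the same filter, 3 of 3 fibroblast markers were tested for Molm-14 and 2 for each other line. Of 3 B-cell markers, 1 was tested for Molm-14 and 2 for each other line. Of 9261 genes at 10 CPM or more in Molm-14 with DMSO, 0 fell under 1% of that level in MV4-11, whereas 61 of 9416 genes fell under it in the reverse direction. The lowest of the Molm-14 genes, DSG2, still averaged 1.14 CPM in MV4-11, or 4.04% of its Molm-14 level of 28.1 CPM. Of 9244 such genes of SKNO-1, 13 fell under 1% in MV4-11 and 123 in Molm-14. In SKNO-1, 69 of the Molm-14 genes and 29 of the MV4-11 genes did so. If MV4-11 libraries held some Molm-14 material, MV4-11 values and their differences from Molm-14 would be those of a mixture, and whether they did was not tested. Bulk RNA was measured, so fewer cells of a kind and less RNA per cell cannot be told apart.

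To compare genes with each other, levels were divided by the length of the longest annotated transcript and are given as CPM per kb. Which transcripts these cells used was not tested, so orders, ratios and shares of genes below hold only for those lengths. DUSP7 had the highest level of the family in each line with DMSO, at 54.9 ± 1.98 CPM per kb (SD, n = 3) for Molm-14, 54.02 ± 11.9 for MV4-11 and 60.2 ± 1.33 for SKNO-1. DUSP7 alone made up 47.2% ± 0.348 of the summed CPM per kb of the 10 members for Molm-14, 46.5% ± 7.65 for MV4-11 and 58.3% ± 0.363 for SKNO-1. DUSP9 was at the other end, with 0 to 5 reads in each of the 18 libraries, and the counts were 0, 0 and 0 in SKNO-1 with DMSO. A count of 0 allows up to 3 reads in that library, for counting error only, so DUSP9 is not interpreted further.

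Between these ends the order depended on the line. In Molm-14 the JNK/p38-selective DUSP10 stood second at 15.6 ± 0.74 CPM per kb, followed by DUSP2 at 14.6 ± 1.04, DUSP6 at 12.4 ± 0.363 and DUSP1 at 10.01 ± 0.677. The ranges of DUSP10 and DUSP2 overlapped in Molm-14, and those of DUSP6 and DUSP1 did not. Without division by length, DUSP6 was above DUSP10 in Molm-14, at 54.6 against 41.6 CPM. In MV4-11 the ERK-selective DUSP6 stood second at 24.6 ± 4.78, above DUSP2 at 12.5 ± 2.29, DUSP1 at 12.3 ± 2.13 and DUSP10 at 7.55 ± 2.02. DUSP2 and DUSP1 did not differ beyond their spread in MV4-11. DUSP6 was second in SKNO-1 as well, at 19.2 ± 0.125, above DUSP1 at 9.81 ± 0.783, DUSP10 at 5.38 ± 0.192 and DUSP2 at 3.89 ± 0.65. DUSP4, DUSP5, DUSP8 and DUSP16 averaged under 5 CPM per kb in every DMSO group, from 0.252 for DUSP8 in SKNO-1 to 3.85 for DUSP8 in Molm-14. Within MV4-11, DUSP5 at 1.35, DUSP16 at 1.15 and DUSP8 at 1.12 had overlapping ranges.

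**Figure D1:**
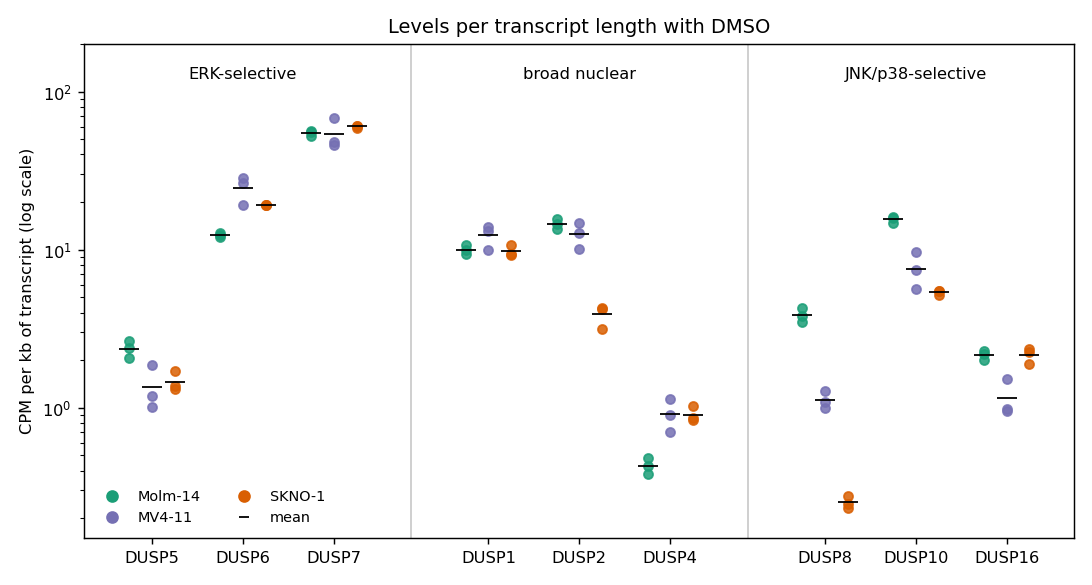
Level of 9 phosphatase genes with DMSO, in CPM per kb of transcript on a log axis, coloured by cell line; DUSP9, at 0 to 5 reads, is not drawn. Points are libraries and short lines are means of 3 libraries, and DUSP7 is the highest gene in each line.

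Differences in DMSO level between the lines were tested with limma (Benjamini-Hochberg adjustment over all genes tested in each comparison). Molm-14 was higher than MV4-11 for 4 of the 9 members tested, beside 29.1% of all genes tested, and lower for 3, beside 25.1%. All 3 JNK/p38-selective members were among the 4, with log2 differences of 1.78 for DUSP8 (adjusted p = 2.1e-05), 1.07 for DUSP10 (adjusted p = 1.9e-05) and 0.94 for DUSP16 (adjusted p = 0.013). The DUSP16 difference was 0.34 after adjustment for mitochondrial share as a covariate (adjusted p = 0.093), and the call was also lost without MV4-11 DMSO replicate 1 (0.82) or 3 (0.84). DUSP6 was lower in Molm-14 by a log2 difference of -0.97 (adjusted p = 2.1e-04), and DUSP4 by -1.06 (adjusted p = 2.8e-04). DUSP1 was also lower, by -0.29 (adjusted p = 0.042), but the difference was 0.0094 in libraries under 10% mitochondrial reads. SKNO-1 was higher than Molm-14 for 2 members, beside 31.8% of genes, and lower for 4, beside 33.6%. The largest of these log2 differences was in DUSP8, at -3.91 (adjusted p = 7.4e-10). DUSP2 followed at -1.91 (adjusted p = 2.4e-08) and DUSP10 at -1.53 (adjusted p = 1.5e-07). SKNO-1 was higher than MV4-11 for 1 member, DUSP16, beside 20.1% of genes, and lower for 4, beside 22.4%, which were DUSP1, DUSP2, DUSP8 and DUSP10. Here DUSP16 differed by 0.94 (adjusted p = 0.017), lost its call in 5 of 27 alternatives and was 0.29 at the lowest. DUSP10 differed by -0.45 (adjusted p = 0.023) and lost its call in 4 of 27. The DUSP1 difference of -0.32 (adjusted p = 0.033) was -0.021 among libraries under 10% mitochondrial reads and lost its call in 9 alternatives in all. DUSP7 passed in none of the 3 comparisons, with 95% intervals of -0.34 to 0.43 for Molm-14 minus MV4-11, -0.25 to 0.52 for SKNO-1 minus Molm-14 and -0.21 to 0.56 for SKNO-1 minus MV4-11. It did pass in settings that account for the mitochondrial share. Molm-14 minus MV4-11 was -0.36 with the share as a covariate (adjusted p = 2.6e-04), and SKNO-1 minus MV4-11 was -0.26 (adjusted p = 0.0070). SKNO-1 minus Molm-14 was 0.13 among libraries under 10% (adjusted p = 0.030). Molm-14 minus MV4-11 was -0.30 among those libraries, which hold 1 MV4-11 culture with DMSO. The shares of members called lay on both sides of those of all genes.

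Responses to RMC-4550 were tested as the difference from DMSO within each line. In Molm-14, 6 of the 9 members tested were lower with RMC-4550 and 1 was higher, beside 25.2% and 21.5% of all 13971 genes tested. In MV4-11, 1 member was lower and 0 were higher, beside 8.03% and 5.85% of 14739 genes. At an unadjusted p under 0.05 the limma count of higher members in MV4-11 was 1, and with voom weights it was 0. The share of all genes at an unadjusted p was not computed, here or below, so such counts have no background beside them. In SKNO-1, 3 members were lower and 1 was higher, beside 16.2% and 10.8% of 14670 genes. The balance of all genes depended on scaling in each line. Lower and higher genes numbered 3525 and 2997 in Molm-14, 1183 and 862 in MV4-11 and 2381 and 1588 in SKNO-1, and with median-ratio scaling 3213 and 3319, 944 and 1018, and 1933 and 1963. The share of members that were lower was above that of all genes in Molm-14 and near it in MV4-11. In SKNO-1 DUSP8, 1 of the 3 lower members, entered the test only through its DMSO libraries and had to be lower, and 2 of the 8 others were lower. The only member called in all 3 lines was DUSP6, and each time it was lower. Over the 9 members the median log2 change was -0.67 for Molm-14, -0.07 for MV4-11 and -0.35 for SKNO-1, beside -0.06, -0.01 and -0.05 over all genes tested.

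**Figure D2:**
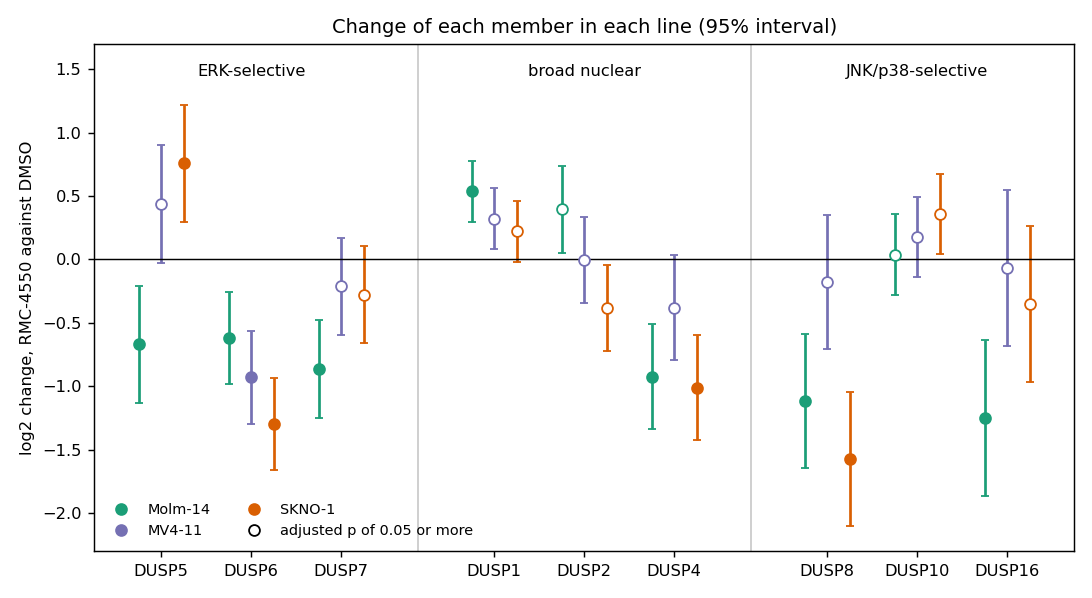
Log2 change with RMC-4550 for the 9 members that entered the test, by cell line, with 95% intervals from limma as bars and filled markers for adjusted p under 0.05. DUSP6 lies below 0 in each line, DUSP1 above 0 in each line, and DUSP5 lies below 0 in Molm-14 and above 0 in SKNO-1.

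DUSP6 encodes the cytoplasmic phosphatase that removes phosphates from ERK in negative feedback (GRCh38 chr12:89347232-89353271, minus strand). In Molm-14 its level was 54.7, 56.2 and 53.0 CPM in the DMSO replicates and 28.2, 47.7 and 33.2 CPM with RMC-4550. In MV4-11 the values were 116, 84.7 and 125 CPM with DMSO and 68.1, 53.6 and 48.4 CPM with RMC-4550. SKNO-1 had 84.9, 83.9 and 84.8 CPM with DMSO and 32.0, 35.5 and 35.7 CPM with RMC-4550. Every treated library was below every DMSO library of its line, a separation seen in 33.1% of genes for Molm-14, 13.5% for MV4-11 and 35.4% for SKNO-1. The library closest to the controls was Molm-14 RMC-4550 replicate 2, which had the highest mitochondrial share. The log2 change was -0.62 (SE 0.17, adjusted p = 0.0076) in Molm-14, -0.93 (SE 0.17, adjusted p = 0.0016) in MV4-11 and -1.30 (SE 0.17, adjusted p = 3.7e-05) in SKNO-1. Without replicate 2 with RMC-4550, the Molm-14 change was -0.84, and under quantile normalization it was -0.46 and was not called (adjusted p = 0.094). In MV4-11 the change within libraries under 10% mitochondrial reads was -0.73, and within the others -0.82. Differences in the DUSP6 response between lines did not pass here: SKNO-1 minus Molm-14 was -0.68 (95% interval -1.19 to -0.16, adjusted p = 0.09), SKNO-1 minus MV4-11 was -0.37 (-0.88 to 0.15) and Molm-14 minus MV4-11 was 0.31 (-0.21 to 0.82). SKNO-1 minus Molm-14 was called in 5 alternatives, among them -0.48 with mitochondrial share as covariate (adjusted p = 7.0e-04) and -0.46 among libraries under 10% (adjusted p = 0.0022). SKNO-1 minus MV4-11 was called with the covariate, at -0.62 (adjusted p = 2.3e-04). It was -0.56 among libraries under 10%, which hold 1 MV4-11 culture with DMSO. The annotated antisense gene AC024909.2 overlaps DUSP6 on the opposite strand and had at most 56 reads in a library.

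DUSP7 is the close cytoplasmic relative of DUSP6 and also prefers ERK (chr3:52048919-52056550, minus strand). Molm-14 had 176, 188 and 187 CPM with DMSO and 122, 72.3 and 116 CPM with RMC-4550. MV4-11 had 161, 226 and 154 CPM with DMSO against 123, 165 and 177 CPM, and SKNO-1 had 196, 204 and 204 CPM against 157, 179 and 163 CPM. The groups did not overlap in Molm-14 and SKNO-1, where the treated libraries were the lower ones, and they overlapped in MV4-11. The log2 change was -0.86 in Molm-14 (SE 0.18, adjusted p = 0.0011), and it was -0.62 without replicate 2. In MV4-11 it was -0.21 (95% interval -0.60 to 0.17) and in SKNO-1 -0.28 (-0.66 to 0.11), and neither passed. Within the mitochondrial strata of MV4-11 the change was -0.40 under 10% and -0.36 at 10% or more. The stratum under 10% held 1 MV4-11 culture with DMSO and 2 with RMC-4550. MV4-11 was called with the share as a covariate (-0.46, adjusted p = 1.5e-05). SKNO-1 was called with the covariate, among libraries under 10% and in a fit of that line alone (adjusted p = 0.0014).

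DUSP5 is the nuclear member that binds ERK, and like DUSP6 it is known as an ERK-induced gene (chr10:110497838-110511544, plus strand). Its level was 6.72, 5.25 and 6.13 CPM with DMSO in Molm-14 and 4.92, 3.07 and 3.51 CPM with RMC-4550. In SKNO-1 it was 3.37, 4.36 and 3.48 CPM with DMSO and 6.38, 5.47 and 7.13 CPM with RMC-4550. The treated libraries were therefore the lower ones in Molm-14 and the higher ones in SKNO-1, with no overlap in either line. MV4-11 had 3.01, 4.76 and 2.57 CPM against 4.38, 4.40 and 4.77 CPM, which overlapped. The log2 change was -0.67 in Molm-14 (SE 0.22, adjusted p = 0.019), 0.76 in SKNO-1 (SE 0.22, adjusted p = 0.017) and 0.44 in MV4-11 (95% interval -0.03 to 0.90, adjusted p = 0.22). The response of SKNO-1 exceeded that of Molm-14 by 1.43 (SE 0.31, adjusted p = 0.0072), where 4.14% of all genes were called higher in that comparison, and it was 1.18 to 1.62 and called under all 28 alternatives that tested it. DUSP5 was the only member called higher there. The call in Molm-14 alone was lost without DMSO replicate 1 or 3 or RMC-4550 replicate 2 or 3 (-0.53 to -0.66) and in a fit of that line alone (adjusted p = 0.054). The call in SKNO-1 alone was lost without DMSO replicate 1 or 3 or RMC-4550 replicate 3 (0.67 to 0.71). DUSP5 thus moved against DUSP6 in SKNO-1, with DUSP6 lower and DUSP5 higher in the same 3 cultures.

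**Figure D3:**
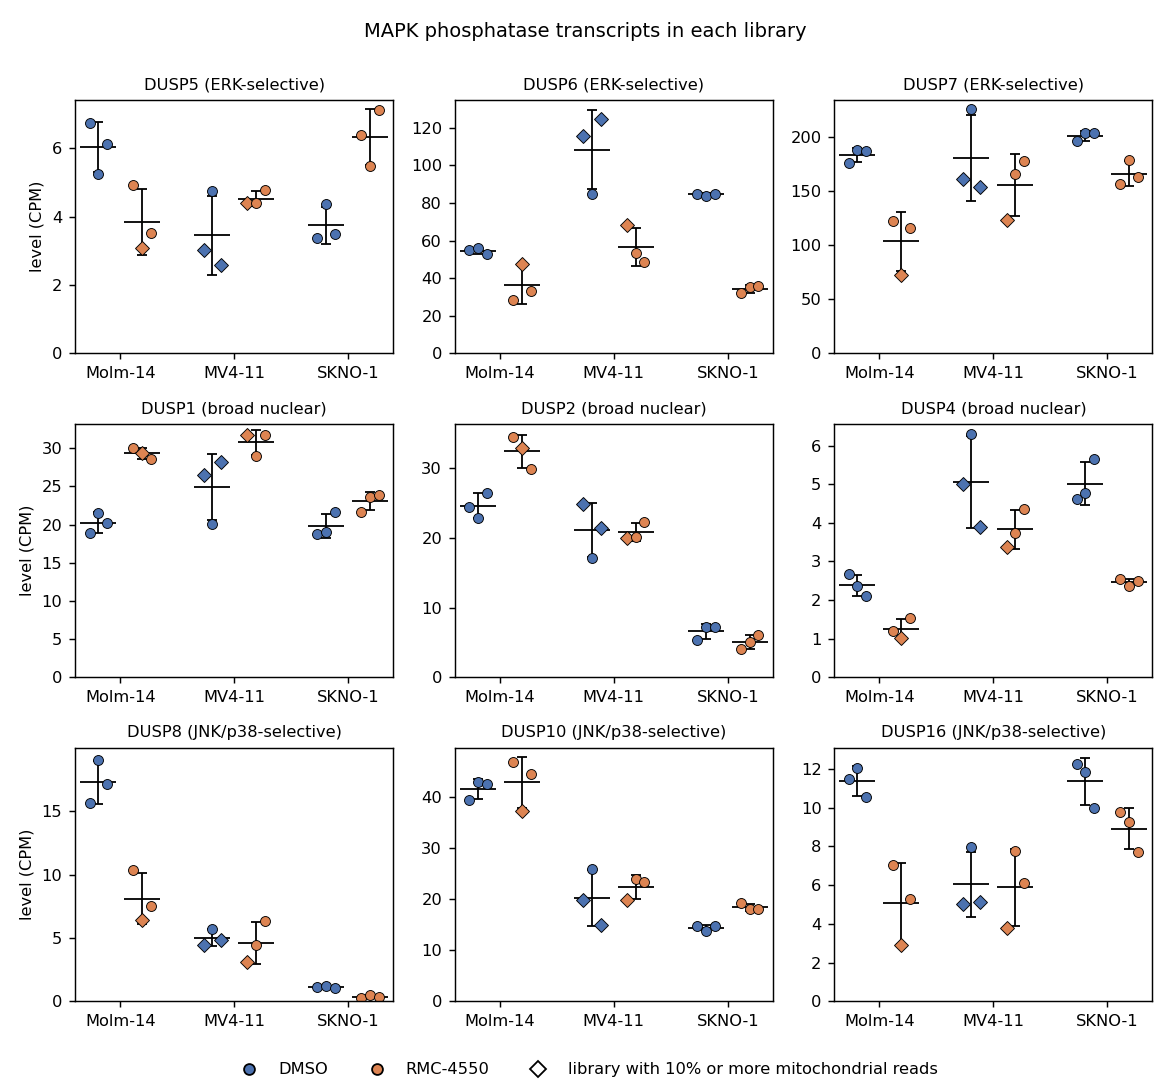
Level of 9 members (all but DUSP9) in every library, in CPM on a linear axis from 0, for DMSO and RMC-4550 in each line. Points are libraries, bars are the mean and SD of 3, and diamonds are libraries with 10% or more mitochondrial reads. DUSP6 is lower with RMC-4550 in each line, and DUSP10 with RMC-4550 lies above DMSO in SKNO-1 and overlaps with it in Molm-14.

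DUSP1, the immediate early nuclear phosphatase induced by stress and growth factors, ran the other way from DUSP6 (chr5:172768090-172771195, minus strand). Molm-14 had 18.8, 21.6 and 20.2 CPM with DMSO and 30.1, 29.3 and 28.6 CPM with RMC-4550. MV4-11 had 26.4, 20.05 and 28.2 CPM against 31.7, 28.9 and 31.7 CPM, and SKNO-1 had 18.7, 19.05 and 21.6 CPM against 21.7, 23.6 and 23.9 CPM. Treated libraries were above the DMSO libraries in all 3 lines, a separation found for 26.9% of genes with Molm-14, 11.1% with MV4-11 and 26.6% with SKNO-1. The log2 change passed in Molm-14, at 0.54 (SE 0.11, adjusted p = 0.0011). It was 0.32 in MV4-11 (95% interval 0.08 to 0.56, adjusted p = 0.075) and 0.22 in SKNO-1 (-0.02 to 0.46, adjusted p = 0.17). In MV4-11 it was called at 0.42 without DMSO replicate 3. Among MV4-11 libraries under 10% mitochondrial reads, 1 with DMSO and 2 with RMC-4550, it was 0.59. It was 0.17, and not called, without DMSO replicate 2, the only DMSO library of that line under 10%.

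DUSP2, another nuclear inducible member, is best known from activated blood cells. Its level was 24.5, 22.9 and 26.4 CPM with DMSO in Molm-14 and 34.5, 32.8 and 29.8 CPM with RMC-4550. SKNO-1 had 5.31, 7.16 and 7.25 CPM against 4.07, 5.06 and 6.02 CPM, and MV4-11 had 24.8, 17.1 and 21.4 CPM against 20.02, 20.1 and 22.3 CPM. Only in Molm-14 did the groups not overlap. No line passed, with log2 changes of -0.38 for SKNO-1 (adjusted p = 0.092), 0.40 for Molm-14 (adjusted p = 0.054) and -0.01 for MV4-11 (adjusted p = 0.99). The difference between SKNO-1 and Molm-14 itself passed, at -0.78 (SE 0.23, adjusted p = 0.038), beside 6.73% of genes called lower in that comparison. It lost the call without a filter on low values (adjusted p = 0.08) and without any of 9 single libraries, where it ran from -0.63 to -0.83.

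DUSP4, the nuclear relative of DUSP1 that is also reported as an ERK-induced gene, was lower in Molm-14 and SKNO-1. The reads were few, at 38 to 48 per library with DMSO and 16 to 27 with RMC-4550 in Molm-14, or 2.67, 2.36 and 2.12 CPM against 1.20, 1.02 and 1.53 CPM. SKNO-1 had 4.61, 4.77 and 5.65 CPM against 2.54, 2.37 and 2.48 CPM. MV4-11 had 5.00, 6.29 and 3.89 CPM against 3.38, 3.75 and 4.36 CPM and was the only line in which the groups overlapped. The log2 change was -0.92 in Molm-14 (SE 0.19, adjusted p = 0.0011) and -1.01 in SKNO-1 (SE 0.19, adjusted p = 0.0010). It was -0.38 in MV4-11 (95% interval -0.79 to 0.03, adjusted p = 0.23). The 3 nuclear members therefore did not share a direction in Molm-14, where DUSP1 was higher and DUSP4 lower.

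DUSP10 is the JNK/p38-selective member with the highest level, and it was not called in any line. Its level was 39.3, 42.9 and 42.6 CPM with DMSO in Molm-14 and 46.9, 37.3 and 44.5 CPM with RMC-4550, with overlap. MV4-11 also overlapped, at 19.8, 25.8 and 15.02 CPM against 19.8, 23.9 and 23.5 CPM. In SKNO-1 the treated libraries, at 19.2, 18.05 and 18.1 CPM, lay above the DMSO libraries at 14.7, 13.8 and 14.7 CPM. The log2 change was 0.04 in Molm-14 (95% interval -0.28 to 0.35), 0.18 in MV4-11 (-0.14 to 0.49) and 0.36 in SKNO-1 (0.04 to 0.67, adjusted p = 0.09). A fit of SKNO-1 alone called it (adjusted p = 0.0021), as did median-ratio scaling, quantile normalization, the 2 settings that account for the mitochondrial share, and the fits without MV4-11 DMSO replicate 2 or 3.

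DUSP16, which shuttles between nucleus and cytoplasm and prefers JNK, had 11.5, 12.1 and 10.5 CPM with DMSO in Molm-14 and 7.05, 2.88 and 5.26 CPM with RMC-4550. The lowest of these was replicate 2, and the groups did not overlap. SKNO-1 had 12.3, 11.8 and 9.98 CPM against 9.76, 9.23 and 7.72 CPM, and MV4-11 had 5.00, 7.98 and 5.15 CPM against 3.80, 7.75 and 6.09 CPM. SKNO-1 did not overlap and MV4-11 did. The change passed in Molm-14, at -1.25 (SE 0.29, adjusted p = 0.0023), and was -0.89 without replicate 2. It was -0.07 in MV4-11 (95% interval -0.68 to 0.55) and -0.35 in SKNO-1 (-0.97 to 0.26). The difference between Molm-14 and MV4-11 was -1.19 and did not pass (adjusted p = 0.053).

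DUSP8, a JNK-selective enzyme best known from nervous tissue and heart, fell in Molm-14 and SKNO-1 (chr11:1554044-1571920, minus strand). Molm-14 had 15.6, 19.03 and 17.2 CPM with DMSO and 10.3, 6.41 and 7.52 CPM with RMC-4550. MV4-11 had 4.47, 5.73 and 4.85 CPM against 3.06, 4.40 and 6.34 CPM, which overlapped. SKNO-1 had 24, 27 and 22 reads with DMSO and 6, 10 and 8 reads with RMC-4550, or 1.13 ± 0.103 CPM against 0.37 ± 0.0932 CPM. The log2 change was -1.12 in Molm-14 (SE 0.25, adjusted p = 0.0018) and -1.57 in SKNO-1 (SE 0.25, adjusted p = 2.0e-04). In SKNO-1 the gene entered the test only through its DMSO libraries, so it had to differ, and with log2(CPM + 1) its change was -0.64. In MV4-11 the change was -0.18 (95% interval -0.71 to 0.35).

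The sequence around the RefSeq start was examined for DUSP6, the member lower in all lines, and for DUSP1 and DUSP8, which moved in opposite directions in Molm-14. RefSeq windows of 300 bases (250 before to 50 after the start, GRCh38.p14) were at hand for 8 of the 10 members. The DUSP6 window is chr12:89352452-89352751, the DUSP1 window chr5:172771146-172771445 and the DUSP8 window chr11:1572222-1572521, each read 5′ to 3′ on the minus strand. The DUSP6 window lies inside the gene coordinates given above, so it is not the sequence upstream of the outermost annotated start. The DUSP8 window lies wholly upstream of the gene coordinates given above. Capitals mark matches, on either strand, to the motifs listed after the sequences.
DUSP6: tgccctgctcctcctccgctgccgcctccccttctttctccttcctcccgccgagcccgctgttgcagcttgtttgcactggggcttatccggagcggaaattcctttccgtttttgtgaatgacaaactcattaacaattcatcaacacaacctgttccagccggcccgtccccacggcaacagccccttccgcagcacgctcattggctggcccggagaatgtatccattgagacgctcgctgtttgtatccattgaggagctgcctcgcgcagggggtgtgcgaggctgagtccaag
DUSP1: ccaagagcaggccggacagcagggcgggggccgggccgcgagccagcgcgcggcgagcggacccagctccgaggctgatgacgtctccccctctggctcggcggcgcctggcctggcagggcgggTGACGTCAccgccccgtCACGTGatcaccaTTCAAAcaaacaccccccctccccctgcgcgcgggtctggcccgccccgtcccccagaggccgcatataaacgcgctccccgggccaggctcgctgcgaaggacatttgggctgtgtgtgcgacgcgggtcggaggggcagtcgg
DUSP8: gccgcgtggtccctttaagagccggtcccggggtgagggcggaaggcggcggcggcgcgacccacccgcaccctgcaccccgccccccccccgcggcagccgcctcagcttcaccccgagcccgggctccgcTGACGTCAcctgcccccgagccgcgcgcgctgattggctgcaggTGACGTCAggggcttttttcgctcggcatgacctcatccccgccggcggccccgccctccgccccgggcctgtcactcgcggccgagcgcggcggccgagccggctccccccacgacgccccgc
DUSP1 held the cyclic AMP response element TGACGTCA at -125, the E-box CACGTG at -108 and, on the other strand, the CHR element TTTGAA at -95, where positions give the first base relative to the start. DUSP8 held TGACGTCA at -118 and -74, and the DUSP6 window held none of the motifs searched. TGACGTCA was present in 1.85% of 35116 promoter windows, CACGTG in 7.26% and TTTGAA in 15.2%. The other motifs searched were the ETS motif CCGGAAG (10.3% of windows), the AP-1 motif TGANTCA (7.71%), the SRF CArG box (1.29%), the FOXO motif GTAAACA (3.42%) and TGACG, the first part of TGACGTCA (24.6%, not capitalised on its own). The shared element thus occurred in a gene that was higher and in one that was lower in Molm-14, and these matches are a description of letters only.

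By class, all 3 of the ERK-selective members tested were lower in Molm-14, 1 was lower in MV4-11, and in SKNO-1 1 was lower and 1 higher. Of all genes tested, 25.2% were lower for Molm-14, 8.03% for MV4-11 and 16.2% for SKNO-1. Of the 3 JNK/p38-selective members, 2 were lower in Molm-14, 0 were called in MV4-11 and 1 was lower in SKNO-1, which was DUSP8, fixed in direction by the filter on low values. None of these 3 reached an unadjusted p under 0.05 in MV4-11, and voom weights called 0 there. The median log2 change of the ERK-selective members was -0.67 for Molm-14, -0.21 for MV4-11 and -0.28 for SKNO-1. For the JNK/p38-selective members it was -1.12, -0.07 and -0.35 in the same order. Without single libraries the MV4-11 medians ran from -0.32 to -0.040 for the ERK-selective and from -0.18 to 0.22 for the JNK/p38-selective members, the latter being positive without DMSO replicate 2 or RMC-4550 replicate 1. The SKNO-1 JNK/p38-selective median includes DUSP8. The medians therefore did not place the classes in the same order in each line, and each rests on 3 genes. The broad nuclear members had medians of 0.40, -0.01 and -0.38.

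Summed per length, DUSP7 and DUSP6 carried most of the ERK-selective level and DUSP10 most of the JNK/p38-selective level. ERK-selective transcripts made up 59.9% ± 0.376 (SD, n = 3) of the family total in Molm-14 with DMSO and 43.5% ± 2.92 with RMC-4550. The share went from 69.1% ± 3.06 to 61.1% ± 1.55 in MV4-11 and from 78.3% ± 0.694 to 71.8% ± 0.923 in SKNO-1. In each line the 3 treated libraries were all below the 3 DMSO libraries, and in MV4-11 the difference was larger among libraries under 10% mitochondrial reads (-10.5 percentage points against -8.02 over all). With 3 against 3 an exact permutation test cannot go below p = 0.1, so no test is given. The class did not move as 1 in each line. With DMSO and RMC-4550, DUSP7 alone held 47.2% ± 0.348 and 32.8% ± 5.99 in Molm-14. It held 46.5% ± 7.65 and 46.2% ± 5.02 in MV4-11, and 58.3% ± 0.363 and 59.5% ± 1.57 in SKNO-1. The lower class share in MV4-11 and SKNO-1 thus did not come from a lower DUSP7 share. The JNK/p38-selective share was 18.5% ± 0.485 with DMSO and 20.05% ± 0.923 with RMC-4550 in Molm-14, 8.44% ± 1.63 and 10.5% ± 0.782 in MV4-11, and 7.56% ± 0.405 and 10.4% ± 0.931 in SKNO-1. The broad nuclear share was 21.5% ± 0.607 and 36.5% ± 3.73, 22.4% ± 4.44 and 28.4% ± 2.32, and 14.1% ± 1.03 and 17.8% ± 0.968 in the same order. The family total was lower with RMC-4550 in each line, at 116 ± 3.38 and 93.5 ± 9.08 CPM per kb in Molm-14, 116 ± 6.11 and 99.9 ± 8.14 in MV4-11, and 103 ± 2.41 and 83.6 ± 4.03 in SKNO-1.

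**Figure D4:**
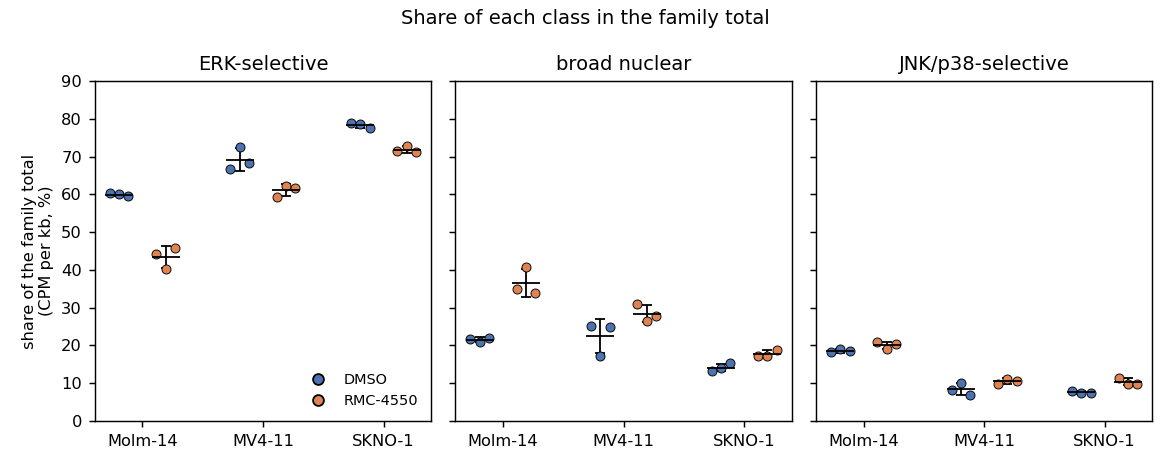
Share of the summed CPM per kb of the 10 members held by ERK-selective, broad nuclear and JNK/p38-selective genes, in percent, by line and treatment. Points are libraries, and bars are the mean and SD of 3. The ERK-selective share is lower with RMC-4550 in each line, from 59.9% to 43.5% in Molm-14.

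The lines also differed in the balance before treatment. The ratio of ERK-selective to JNK/p38-selective level was 3.23 ± 0.0873 for Molm-14, 8.36 ± 1.38 for MV4-11 and 10.4 ± 0.477 for SKNO-1 with DMSO, and 2.17 ± 0.0803, 5.84 ± 0.295 and 6.94 ± 0.636 with RMC-4550. The ratio of DUSP6 to DUSP10 was 0.799 ± 0.0451 in Molm-14 with DMSO, so the JNK/p38-selective gene was the higher of the pair per length there. Without division by length DUSP6 was the higher, at 54.6 against 41.6 CPM. The ratio per length was 3.53 ± 1.53 in MV4-11 and 3.57 ± 0.107 in SKNO-1. The MV4-11 libraries had 3.56, 1.99 and 5.05, the lowest being replicate 2, the only 1 under 10% mitochondrial reads. With RMC-4550 the ratio was 0.532 ± 0.217, 1.57 ± 0.459 and 1.14 ± 0.11 in the same order.

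Differences of response between lines were called for few members. For Molm-14 minus MV4-11, DUSP5 was lower, at -1.11 (SE 0.31, adjusted p = 0.022), and 0 members were higher, beside 9.12% and 10.3% of genes. At an unadjusted p under 0.05 the counts were 4 and 0, and voom weights called 2 and 0. The shares of all genes were not computed at that threshold or with voom weights, in this comparison or the next. The DUSP5 difference was only -0.48 among libraries under 10% mitochondrial reads, which hold 1 MV4-11 culture with DMSO. For SKNO-1 minus MV4-11, limma called 0 members, beside 0.482% of genes higher and 1.17% lower. At an unadjusted p under 0.05, 2 members were lower, DUSP4 at -0.63 and DUSP8 at -1.40, and voom weights called 0. The DUSP8 difference carries the SKNO-1 fall that was fixed in direction by the filter on low values, so it is no support. Over the alternatives it ran from -1.87 to -0.50.

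The wider pathway gives the setting of these changes. ERK output genes outside the family, 14 in the list, were lower for 11 of 12 tested in Molm-14, 5 of 11 in MV4-11 and 7 of 10 in SKNO-1. Of all genes tested, 25.2%, 8.03% and 16.2% were lower in the same order. The medians of the list were -1.18, -0.91 and -1.32. In SKNO-1, CCND1 (25 to 36 reads with DMSO, 0 to 3 with RMC-4550) and ETV4 (35 to 43 against 3 to 5) entered the test only through DMSO and had to be lower, and 5 of the other 8 were lower. The SKNO-1 count was 4 without DMSO replicate 3, and the MV4-11 count was 3 without RMC-4550 replicate 2, 10 with mitochondrial share as covariate and 8 with voom weights. Of all 14739 genes tested in MV4-11, 3266 were lower with the covariate and 1322 with voom weights, against 1183 in the main fit. No gene of the list was higher, with limma or at an unadjusted p under 0.05. ETV4, an ETS factor transcribed downstream of ERK, changed by -3.47 for Molm-14, -1.63 for MV4-11 and -3.28 for SKNO-1. In the same order FOSL1, an AP-1 subunit, changed by -0.92, -0.79 and -1.43, and SPRED2, an inhibitor of RAS signalling, by -0.74, -0.55 and -1.20. SPRY4, a feedback inhibitor of receptor signalling, changed by -3.65 and -2.55 in Molm-14 and MV4-11 and was not tested in SKNO-1. In MV4-11, FOSL1 lost its call in 17 of 29 alternatives (adjusted p up to 0.19), and SPRED2 lost it in a fit of that line alone (adjusted p = 0.082).

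JNK and p38 kinases and effectors, 12 genes, had 3 higher and 5 lower in Molm-14, and 1 lower in each of the other lines, with medians of -0.36, -0.09 and -0.0023. In Molm-14 this stands beside 21.5% of all genes higher and 25.2% lower, and the count of higher genes was 1 without DMSO replicate 1 or 2 or RMC-4550 replicate 2. The shares of all genes higher and lower were 5.85% and 8.03% in MV4-11 and 10.8% and 16.2% in SKNO-1. The same shares apply to the MAP kinase and MAP kinase kinase counts below. GADD45A, which activates the kinase upstream of p38 and JNK, changed by -1.01 in Molm-14 and -0.66 in MV4-11, and was at -0.21 in SKNO-1 without passing. MAP3K4, the kinase it activates, changed by -0.45 in Molm-14 and -0.39 in SKNO-1 and was at -0.14 in MV4-11 without passing. Of 9 MAP kinase genes tested, 1 was higher and 3 were lower in Molm-14, 3 were lower in SKNO-1 and 0 were called in MV4-11, where 1 was lower at an unadjusted p under 0.05. MAPK12, a p38 isoform, changed by -0.50 in Molm-14 and -0.66 in SKNO-1 and was at -0.17 in MV4-11 without passing. Of 7 MAP kinase kinases, 3 were higher and 1 lower in Molm-14, and 1 was higher in each of the other lines. That gene was MAP2K6, which activates p38, at 0.83 for Molm-14, 0.65 for MV4-11 and 0.66 for SKNO-1. In a fit of MV4-11 alone it was not called (adjusted p = 0.16).

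Phosphatases beyond the 10 members were counted in the same way. Of 11 atypical dual-specificity phosphatases tested, small enzymes without the MAP kinase binding domain, 5 were higher and 3 lower in Molm-14, 2 were higher in MV4-11 and 3 were higher in SKNO-1. Of all genes tested, 21.5% were higher and 25.2% lower in Molm-14, 5.85% were higher in MV4-11 and 10.8% in SKNO-1. The 3 lower genes in Molm-14 were near that share. The medians were 0.42, 0.01 and 0.15. DUSP22 rose in all 3 lines, by 0.53, 0.38 and 0.60, as did DUSP3, by 0.55, 0.41 and 0.34, both of which are known to act in MAP kinase pathways. The DUSP3 call in SKNO-1 was lost in 15 of 29 alternatives (adjusted p up to 0.12). DUSP28 rose by 0.90 in Molm-14 and 0.54 in SKNO-1 and was at 0.38 in MV4-11 without passing. Among 6 other phosphatases that act on MAP kinases, 4 were lower in Molm-14 and 2 in each of the other lines. The share of all genes that were lower, 25.2% for Molm-14, was 8.03% for MV4-11 and 16.2% for SKNO-1. PPP2CA, a catalytic subunit of PP2A, changed by -0.24, -0.32 and -0.43, and PTPN7, a tyrosine phosphatase of blood cells that binds ERK and p38, by -0.45 in Molm-14 and -0.23 in SKNO-1. In MV4-11 PTPN7 was at -0.25 without passing, and 8 of 29 alternatives called it there. Several of these small changes were close to the threshold: in MV4-11, DUSP22, DUSP3 and PPP2CA were not called in a fit of that line alone. PPP2CA in Molm-14 lost its call in 9 of 29 alternatives and PTPN7 in SKNO-1 in 17. The count of lower genes of this last list in SKNO-1 moved in 20 of 29 alternatives, between 1 and 6.

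The pattern of DUSP6 over the 18 libraries was compared with that of 11013 genes averaging at least 5 CPM. The highest Pearson correlations of log2 values were with UBE2C (r = 0.98), ARHGEF39 (r = 0.97), IQGAP3 (r = 0.96), JPT1 (r = 0.96) and C11orf24 (r = 0.96). After each line's mean was subtracted they were with UBE2C (r = 0.99), HAUS8 (r = 0.99), CHTF18 (r = 0.98), TROAP (r = 0.98) and RECQL4 (r = 0.98). Among the members with at least 5 CPM on average, the correlation with DUSP6 on that second scale was 0.65 for DUSP8, 0.32 for DUSP7, 0.23 for DUSP2, 0.21 for DUSP16, -0.58 for DUSP1 and -0.77 for DUSP10. The libraries share treatment and mitochondrial share, so these values describe the 18 libraries and are not tests.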

How the data were processed

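The table holds log2 values deposited by the authors for 40184 Ensembl gene IDs in 18 samples. Per the submitters' processing notes, the tools included FastQC, STAR and limma with GRCh38. Versions, annotation, counting and strand use are not given in the sources used here. From the values, each is log2 of the CPM of reads plus 0.5 on a scaled library. Undoing this gave whole reads (within 0.05) for 100% of the low values checked, and CPM was computed from these reads. Symbols matched 40069 IDs, and CPM per kb used the longest GENCODE 29 transcript.

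Changes were tested on the log2 values with limma 3.58.1 in R 4.3.3 (lmFit, eBayes with an intensity trend, two-sided), in 1 fit with 1 coefficient per group. The added 0.5 reads makes changes of low genes smaller. Genes needed at least 1 CPM in 3 samples, which left 16262, and in 3 samples of each line compared. Calls were made at a Benjamini-Hochberg adjusted p under 0.05. The design had assumed linear values, so no logarithm was taken again, and count models were not used. The fit was tested on simulated data. No replicate pair agreed within sampling noise. Reads carry no molecular identifiers, so limits cover counting error only.

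The members and gene lists were chosen with earlier results of these data known. By rule, all 10 members were named, at most 4 genes of each pathway list (those called the same way in the most lines, then by size), and the 5 genes most like DUSP6. Lists covered ERK output, JNK and p38 effectors, MAP kinases, MAP kinase kinases, other phosphatases and cell type markers. Alternatives were log2(CPM + 1), filters, median-ratio and quantile scaling, separate fits, a replicate block, no trend, voom weights, the mitochondrial share as a covariate and leaving out each library. The fit on libraries under 10% mitochondrial reads was added after seeing the data. Figures used matplotlib 3.10.9 in Python 3.11.15.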

Additional observations from a re-analysis of the deposited data

Results flagged for a closer look

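DUSP5, the nuclear ERK phosphatase, responded differently in SKNO-1 and Molm-14, by 1.43 on the log2 scale (SE 0.31, limma adjusted p = 0.0072). All 3 treated cultures were above the controls in SKNO-1, and all 3 were below them in Molm-14.

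The DUSP5 response of Molm-14 also differed from that of MV4-11, by -1.11 (SE 0.31, limma adjusted p = 0.022). It lost the call with the mitochondrial share as a covariate (-0.69), in a fit of that pair of lines (adjusted p = 0.068) and without any of 5 single libraries. Among libraries under 10% mitochondrial reads, which hold 1 MV4-11 culture with DMSO, it was -0.48.

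DUSP2, a nuclear phosphatase of activated blood cells, differed in response between SKNO-1 and Molm-14, by -0.78 (SE 0.23, limma adjusted p = 0.038). Its treated cultures were all above the controls in Molm-14, and the groups overlapped in SKNO-1.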

How the results depend on the processing

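Of the member calls, DUSP6 in MV4-11 and SKNO-1, DUSP1, DUSP4, DUSP7, DUSP8 and DUSP16 in Molm-14 and DUSP4 in SKNO-1 held under every alternative that tested them. DUSP8 in SKNO-1 also held, but could not be tested without any of its DMSO libraries, and DUSP4 and DUSP5 drop out at a mean of at least 5 CPM. Reads limit DUSP4 in Molm-14, DUSP8 in SKNO-1 and DUSP9 throughout. Where no cause is named for a change below, the cause was not tested.

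Counts of members called higher in Molm-14 were 2 instead of 1 with log2(CPM + 1), quantile normalization, median-ratio scaling, the replicate block, a separate fit, voom weights and libraries under 10% mitochondrial reads, and 1 to 2 without single libraries. In MV4-11, higher and lower members numbered 1 and 4 with mitochondrial share as covariate, and higher members 0 to 1 without single libraries. With the covariate, higher and lower genes there numbered 1788 and 3266 of all 14739 tested, against 862 and 1183 in the main fit. Counts that involve MV4-11 are not given for libraries under 10%, which hold 1 of its cultures with DMSO. In SKNO-1, higher members numbered 0 at a mean of at least 5 CPM (DUSP5 untested), 2 with median-ratio scaling or quantile normalization, and 0 to 2 without single libraries. Higher and lower members there numbered 3 and 5 in a separate fit, 2 and 5 with the covariate and 3 and 6 among libraries under 10%. In the same order, higher and lower genes of all 14670 tested in SKNO-1 numbered 3453 and 4756, 2937 and 4333, and 3111 and 4707. The main fit had 1588 and 2381, so calls over all genes also rose in these settings.

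Shares of all genes were not computed for the alternatives in the comparisons between lines, so the member counts that follow have no background beside them. For the response of Molm-14 minus MV4-11, lower members numbered 3 with log2(CPM + 1) and 2 with median-ratio scaling, voom weights or the replicate block. They numbered 0 at a mean of at least 5 CPM, in a separate fit and with the covariate, and 0 to 5 without single libraries (higher: 0 to 1). For SKNO-1 minus Molm-14, lower members numbered 0 with no filter, 2 in a separate fit or with the covariate, 3 among libraries under 10% and 0 to 2 without single libraries, and higher members 0 at a mean of at least 5 CPM, 3 with the covariate and 2 among libraries under 10%. For SKNO-1 minus MV4-11, lower members numbered 1 with quantile normalization, 2 with the covariate and 0 to 1 without single libraries. For DMSO levels, higher members in SKNO-1 minus Molm-14 numbered 1 at a mean of at least 5 CPM. In SKNO-1 minus MV4-11 higher members numbered 0 with the covariate and 0 to 1 without single libraries, and lower members 2 to 5.

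The ERK-selective median in SKNO-1 was 0.24 with no filter, which adds DUSP9, and -0.79 at a mean of at least 5 CPM, which drops DUSP5. At that filter it was -0.57 in MV4-11. The JNK/p38-selective median in SKNO-1 ran from -0.42 to 0.038 without single libraries, the highest where DUSP8 falls below the filter. The fall of the ERK-selective share in MV4-11 was -10.5 percentage points among libraries under 10%.

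Reversals were limited to differences that were not called, apart from DUSP1 below. Responses reversed in MV4-11 for DUSP2, at 0.036 with median-ratio scaling, 0.034 with quantile normalization, 0.047 with the covariate and 0.31 among libraries under 10%, and there also for DUSP5 (-0.053) and DUSP10 (-0.12) in the last. Without single libraries the ranges crossed 0 in MV4-11 for DUSP2 (-0.15 to 0.12), DUSP8 (-0.44 to 0.083), DUSP10 (-0.0203 to 0.37), DUSP16 (-0.29 to 0.22) and MAP3K4 (-0.23 to 0.018), and in Molm-14 for DUSP10 (-0.029 to 0.13). Differences of response reversed for SKNO-1 minus Molm-14 in DUSP8 (0.39 with log2(CPM + 1)) and, without single libraries, in DUSP4 (-0.22 to 0.062). For Molm-14 minus MV4-11 they reversed with the covariate and among libraries under 10% in DUSP6 (-0.14 and -0.10) and DUSP10 (0.20 and 0.26), in DUSP1 (-0.055) among libraries under 10%, and DUSP10 ran from -0.33 to 0.058 without single libraries. For SKNO-1 minus MV4-11 they reversed in DUSP7 (0.21 and 0.12 with those 2 settings) and DUSP16 (0.12 with the covariate), and without single libraries in DUSP1 (-0.20 to 0.051), DUSP7 (-0.24 to 0.041) and DUSP10 (-0.013 to 0.38).

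DMSO levels reversed for SKNO-1 minus Molm-14 in DUSP16 (0.045 with median-ratio scaling, 0.026 with quantile normalization, -0.062 to 0.087 without single libraries) and DUSP1 (0.018, 0.056 and -0.096 to 0.017). For Molm-14 minus MV4-11 they reversed in DUSP7 (-0.059 with quantile normalization, -0.36 with the covariate, -0.30 among libraries under 10%, -0.0586 to 0.22 without single libraries) and in DUSP1 (0.0094 among libraries under 10%), which had been called lower. For SKNO-1 minus MV4-11 they reversed in DUSP4 (-0.0070 with voom weights, -0.28 with the covariate, -0.33 among libraries under 10%, -0.17 to 0.18 without single libraries), DUSP5 (-0.22, -0.36 and -0.0295 to 0.41 for the last 3), DUSP6 (0.066 with the covariate) and DUSP7 (-0.26 with the covariate and -0.17 among libraries under 10%).

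The replicate numbers were not treated as pairs: same-numbered cultures correlated in their deviations from the group means from -0.40 to 0.59 in MV4-11, -0.05 to 0.0028 in Molm-14 and 0.01 to 0.13 in SKNO-1. With the replicate block, higher members in Molm-14 numbered 2 and lower members in Molm-14 minus MV4-11 numbered 2, while the other response counts did not change.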
